A study of Mus musculus with 6 samples.

Results

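The genes described are 10 that encode adipokines and other hormones or secreted factors of fat, namely Adipoq, Lep, Retn, Rbp4, Nampt, Rarres2, Apln, Nrg4, Fgf21 and Agt. They were chosen by name, and for each the brightest probe set annotated with that symbol alone was used, by its mean over 6 arrays. All 10 had such a probe set, out of 19938 genes that did, and 9 of them lay above the limit for dim genes, out of 11963 genes tested. The limit left out the dimmest 40% of genes, those with a mean log2 intensity under 6.83, and Fgf21 fell below it.

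The arrays held RNA of the epididymal fat pad (eWAT, a white and visceral depot) of male C57BL6/J mice that received a high-fat diet (HFD) for 12 weeks, begun at 6 weeks of age. Both groups were injected into the epididymal fat pads with a recombinant adeno-associated virus (rAAV) of the engineered serotype Rec2 during the diet, and no uninjected or chow-fed group is among the arrays. In the rAAV-Lmo3 group the virus carried Lmo3, a LIM-domain cofactor of transcription, and in the rAAV-YFP group it carried yellow fluorescent protein. The sample titles name the control virus rAAV-YFP, whereas a protocol text of the same labels has rAAV-LacZ, and the titles were followed. The transgenes were driven by a CMV enhancer and chicken beta-actin promoter, which is not restricted to adipocytes. Each group had 3 arrays, and each array held RNA pooled from 2 mice, so that values of single animals were not measured.

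Fat is an endocrine organ, and adipocytes release hormones that report energy stores and act on brain, liver, muscle and the fat itself. Leptin, the product of Lep, is secreted in proportion to fat mass and restrains food intake, while adiponectin, the product of Adipoq, favours insulin action and circulates at lower levels in obesity. Others of these factors are made by several cell types, and a homogenate of eWAT also contains macrophages, vessels and progenitor cells that bear receptors for them.

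In the 11963 genes tested with limma, 0.0% passed at an adjusted p under 0.05 and 4.66% at an unadjusted p under 0.05, 2.27% higher and 2.4% lower in rAAV-Lmo3. With each array centred on its median over all probe sets, the unadjusted split turned from 271 higher and 287 lower genes to 317 and 216, and with each array centred on its adipocyte markers to 171 and 73. With the median taken over the genes tested, the split was 246 higher and 279 lower. The groups did not overlap for 10.5% of the genes, 4.53% higher and 5.95% lower. The methods' t-test gave 4.64% at the unadjusted level and 0.0% after adjustment. The probe set of Lmo3 read 25, 24 and 24 in rAAV-YFP and 24, 26 and 24 in rAAV-Lmo3, far under the dim limit, and so gave no check of the group labels. Arrays rAAV-YFP 2 and rAAV-Lmo3 1 stood apart, correlating with the others at a mean of 0.988 and 0.986 against 0.990 to 0.991. Values without 1 or both of them are given beside the results below.

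No adipokine gene passed the test. By limma with Benjamini-Hochberg adjustment over all genes tested, 0 of the 9 tested adipokine genes had an adjusted p under 0.05, and 0 an unadjusted p under 0.05 by limma or by the methods' t-test. Log2 differences, always rAAV-Lmo3 minus rAAV-YFP, ran from -0.43 for Agt to 0.45 for Nrg4 with a median of -0.02, beside a median of 0.00 over all genes tested. Of the 9 genes 4 lay above 0, beside 50.3% of all genes tested. Lep was the 1 member whose groups did not overlap, and its difference was also the one largest against its error. A further array-to-array pattern stood out, because 7 of the 9 genes were highest of their group on rAAV-YFP 2 and again on rAAV-Lmo3 1, beside 21.4% of all genes tested.

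Proximal promoters are shown for Lep, the gene whose groups did not overlap, and for Adipoq and Retn, a pair of adipocyte hormones whose highest arrays were the same. Each run is the 250 bases before the annotated start in RefSeq (GRCm38.p6), written 5′ to 3′ in the direction of the gene. The Lep run lies at chr6:29059971-29060220 (+ strand), that of Adipoq at chr16:23146286-23146535 (+ strand) and that of Retn at chr8:3655520-3655769 (+ strand). Capitals mark the C/EBP palindrome TTGCGCAA, the CCAAT box on either strand (CCAAT or ATTGG) and the TATA box TATAAA.
Lep promoter: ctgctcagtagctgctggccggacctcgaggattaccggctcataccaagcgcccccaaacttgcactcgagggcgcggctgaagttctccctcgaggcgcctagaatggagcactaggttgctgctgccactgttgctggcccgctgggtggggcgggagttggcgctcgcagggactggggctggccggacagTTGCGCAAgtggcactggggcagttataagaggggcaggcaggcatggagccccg
Adipoq promoter: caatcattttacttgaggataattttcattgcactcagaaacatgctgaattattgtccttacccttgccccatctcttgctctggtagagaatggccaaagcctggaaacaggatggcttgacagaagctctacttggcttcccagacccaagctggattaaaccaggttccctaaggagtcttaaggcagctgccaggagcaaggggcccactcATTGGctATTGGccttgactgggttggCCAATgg
Retn promoter: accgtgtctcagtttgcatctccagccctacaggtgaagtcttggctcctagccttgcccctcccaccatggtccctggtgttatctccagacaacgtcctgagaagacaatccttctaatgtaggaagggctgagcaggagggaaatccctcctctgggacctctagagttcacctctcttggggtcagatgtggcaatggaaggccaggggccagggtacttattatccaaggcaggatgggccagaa

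C/EBP factors, a family of adipogenic transcription factors, can bind the palindrome TTGCGCAA. Of the member promoters Lep alone held it, 55 bases before the start, and 0.164% of 32851 mouse promoters of the same length did. Its looser form TTNNGCAA, which every TTGCGCAA also matches, stood in the promoters of Lep and Rbp4 and in 9.56% of all promoters. The Adipoq promoter held 3 CCAAT boxes, 34, 27 and 7 bases before the start, and CCAAT was also found for Rbp4 and in 33.8% of all promoters. The Retn run held none of the 7 motifs searched. TATAAA was found for Rbp4, Fgf21 and Agt, and in 12.4% of all promoters. The nuclear receptor half-site AGGTCA was found for Nampt and Nrg4 and in 14.0% of all promoters, and the E-box CACGTG for Fgf21 and in 6.02%. The glucocorticoid receptor half-site AGAACA was found for no member and in 16.1% of all promoters. Both strands were searched, 9 of the 10 genes had a promoter in the table, Rbp4 had a pair of them, and Rarres2 is named only. These matches describe letters in these windows.

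Lep, the fat hormone that signals energy stores to the hypothalamus, had intensities of 9547, 9219 and 9439 in rAAV-YFP and of 6681, 9079 and 7709 in rAAV-Lmo3. All 3 rAAV-Lmo3 arrays lay below all 3 controls, rAAV-Lmo3 1 farthest and rAAV-Lmo3 2 just under the lowest control. The log2 means were 13.20 ± 0.03 in rAAV-YFP and 12.92 ± 0.22 in rAAV-Lmo3 (SD, n = 3 pools per group). The control level was therefore 1.21-fold that of rAAV-Lmo3, a log2 difference of -0.28 ± 0.12 (SE) with a 95% interval from -0.56 to 0.01. The difference did not pass limma (unadjusted p = 0.0565, adjusted p = 0.970), and the exact two-sided permutation p was 0.1, the smallest that 3 arrays against 3 can give. Groups that lay apart with the rAAV-Lmo3 arrays lower were found for 1 of the 9 tested members, beside the 5.95% of all genes given above. A bulk homogenate does not separate the number of adipocytes from the Lep RNA in each. The adipocyte markers described below had a median log2 difference of 0.00, and on rAAV-Lmo3 1, where Lep was lowest, their summed intensity was the highest of its group at 72479. The part of adipocyte number in the Lep values was not tested.

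The value of Lep was set in part by single arrays. Without rAAV-Lmo3 1 the difference was -0.17, without rAAV-Lmo3 2 it was -0.39 with an unadjusted p of 0.0105, and without both arrays that stood apart it was -0.18. With each array centred on its median over the genes tested the unadjusted p was 0.0476, but with the median taken over all probe sets it was 0.0651. With each array centred on its adipocyte markers the difference was -0.25 ± 0.20 (SE). In all of these settings Lep lay lower in rAAV-Lmo3.

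Adipoq, the gene of adiponectin, read 8606, 10223 and 8364 in rAAV-YFP and 10809, 8041 and 8014 in rAAV-Lmo3. Its 2 highest arrays were rAAV-Lmo3 1 and rAAV-YFP 2, 1 of each group, and the rAAV-Lmo3 range enclosed that of the controls. The log2 difference was -0.03 ± 0.15 (SE, n = 3 pools per group), with a 95% interval from -0.38 to 0.32 and an adjusted p of 0.993 by limma. That interval covers folds from 0.770 to 1.25. Left-out arrays moved the value between -0.17, without rAAV-Lmo3 1, and 0.06, without rAAV-YFP 2, so it had no settled direction.

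**Figure D1:**
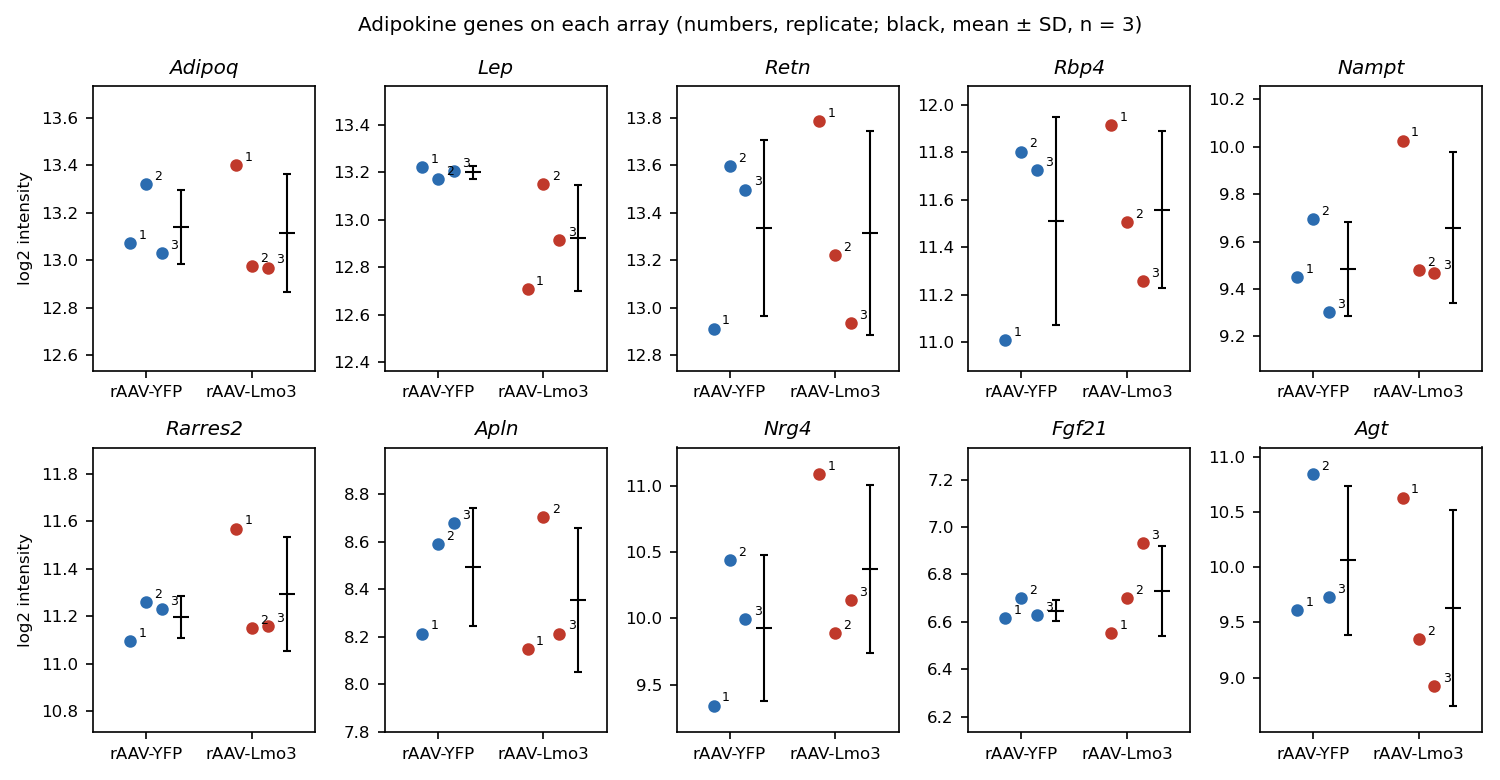
Log2 intensity (vertical axis, a span of at least 1.2 log2 units per panel) of the 10 adipokine genes on each array of the rAAV-YFP group (blue) and the rAAV-Lmo3 group (red); numbers give the replicate, and black bars the mean ± SD (n = 3 pools). Lep alone has all rAAV-Lmo3 arrays below all rAAV-YFP arrays, and in 7 panels replicate 2 is the highest blue and replicate 1 the highest red point.

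Retn encodes resistin, which in mice is made by adipocytes and opposes insulin action. It read 7709, 12405 and 11568 in rAAV-YFP and 14116, 9566 and 7840 in rAAV-Lmo3, so rAAV-YFP 1 and rAAV-Lmo3 3 shared the low end and rAAV-Lmo3 1 was highest. Within each group the arrays differed far more than the group means, and the difference was -0.02 ± 0.26 (SE, 95% interval -0.65 to 0.60, adjusted p = 0.996 by limma). Rbp4, the plasma carrier of retinol that fat secretes beside the liver, read 2061, 3575 and 3387 in rAAV-YFP and 3860, 2909 and 2450 in rAAV-Lmo3. Its groups overlapped too, with rAAV-YFP 1 the lowest and rAAV-Lmo3 1 the highest array. The difference of Rbp4 was 0.05 ± 0.25 (SE, 95% interval -0.56 to 0.65), and it lay at -0.20 without rAAV-YFP 1 and at -0.13 without rAAV-Lmo3 1.

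Nampt encodes the rate-limiting enzyme of NAD salvage, whose secreted form is also known as visfatin. It read 699, 829 and 632 in rAAV-YFP and 1042, 714 and 708 in rAAV-Lmo3, where rAAV-Lmo3 1 exceeded every other array. The difference of 0.17 ± 0.18 (SE, 95% interval -0.26 to 0.60, adjusted p = 0.971 by limma) rested on that array, since without it the value was -0.01. Rarres2, the gene of the chemoattractant chemerin, read 2191, 2456 and 2405 in rAAV-YFP and 3041, 2272 and 2287 in rAAV-Lmo3. Here as well rAAV-Lmo3 1 lay above all other arrays, while the remaining 5 differed little. The difference of Rarres2 was 0.10 ± 0.13 (SE, 95% interval -0.22 to 0.41), or -0.04 without rAAV-Lmo3 1.

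Nrg4 and Agt varied most of all members. Nrg4, an epidermal growth factor family ligand enriched in brown fat that acts on the liver, read 649, 1389 and 1020 in rAAV-YFP and 2174, 949 and 1129 in rAAV-Lmo3. The highest array was 3.35-fold the lowest, and the groups overlapped because rAAV-YFP 2 exceeded both of the lower rAAV-Lmo3 arrays. The difference was 0.45 ± 0.38 (SE, 95% interval -0.46 to 1.35, adjusted p = 0.971 by limma), or 0.09 without rAAV-Lmo3 1, 0.16 without rAAV-YFP 1, 0.70 without rAAV-YFP 2, 0.69 without rAAV-Lmo3 2 and 0.35 without both arrays that stood apart. The summed intensity of 8 brown fat markers, 4 of them above the dim limit, was 1046, 1103 and 1179 in rAAV-YFP. In rAAV-Lmo3 it was 2337, 1419 and 1580. Like Nrg4 the sum was highest on rAAV-Lmo3 1, but in rAAV-YFP it was highest on replicate 3 and Nrg4 on replicate 2. On rAAV-Lmo3 1 Cox8b alone read 1017, and Ucp1, Cidea, Ppargc1a and Cox7a1 were also highest of their group. Dio2, Elovl3 and Otop1 were lowest of their group there. The part of these markers in the Nrg4 values was not tested.

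Agt encodes angiotensinogen, the precursor of the angiotensins that fat makes in addition to the liver. It read 784, 1837 and 851 in rAAV-YFP and 1587, 652 and 486 in rAAV-Lmo3. The 2 high arrays, rAAV-YFP 2 and rAAV-Lmo3 1, stood on opposite sides of the comparison, and the groups overlapped. The difference was -0.43 ± 0.50 (SE, 95% interval -1.63 to 0.77, adjusted p = 0.971 by limma). It was -0.93 without rAAV-Lmo3 1, with an unadjusted p of 0.0497, and -0.04 without rAAV-YFP 2. With both left out it was -0.54 with an unadjusted p of 0.0135 by limma, and 502 of all genes tested then had an unadjusted p under 0.05. It was also -0.65 without rAAV-YFP 1, -0.28 without rAAV-Lmo3 2 and -0.07 without rAAV-Lmo3 3. The size of the Agt difference was thus not settled by these arrays, and its interval with all arrays included 0.

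Apln, the gene of apelin, a peptide that acts on vessels and is induced by insulin in adipocytes, read 297, 386 and 410 in rAAV-YFP and 284, 417 and 297 in rAAV-Lmo3. Its groups covered nearly the same range, with a difference of -0.14 ± 0.19 (SE, 95% interval -0.59 to 0.31), -0.31 without rAAV-Lmo3 2 and -0.04 without rAAV-Lmo3 1. Fgf21, a starvation-induced hormone that the liver secretes and fat responds to, read 98, 104 and 99 in rAAV-YFP and 94, 104 and 122 in rAAV-Lmo3. Its mean lay under the dim limit, which is an intensity of 114, so it was not tested, and the fit without that limit gave 0.08 ± 0.10 (SE, adjusted p = 0.984 by limma). Its 1 array above the limit was rAAV-Lmo3 3, and without it the difference was -0.02.

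**Figure D2:**
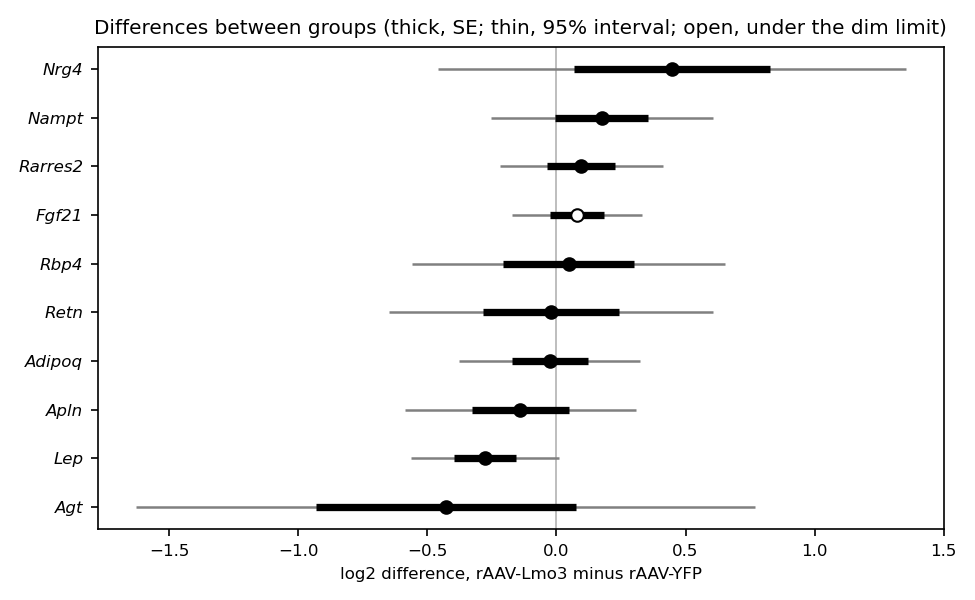
Log2 difference of each adipokine gene (horizontal axis, rAAV-Lmo3 minus rAAV-YFP; 1 gene per line; point, estimate; thick bar, ± SE; thin bar, 95% interval; n = 3 pools per group); Fgf21, under the dim limit, is an open point from the fit without that limit. All 10 intervals include 0, the upper end for Lep lies at 0.01, and those of Agt and Nrg4 are the widest.

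The spread within groups was wide for most of these genes. The pooled SD of the log2 intensity was 0.79 for Agt, 0.59 for Nrg4, 0.40 for Retn and 0.39 for Rbp4, which was above that of 99.3%, 97.8%, 93.4% and 93.0% of the genes tested. It was 0.28 for Apln, 0.27 for Nampt, 0.21 for Adipoq, 0.18 for Rarres2, 0.16 for Lep and 0.14 for Fgf21, and all 10 lay over the median of the genes tested. The spread of Lep was unequal, with an SD of 0.03 in rAAV-YFP and 0.22 in rAAV-Lmo3.

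The genes highest of their group on rAAV-YFP 2 and on rAAV-Lmo3 1 were Adipoq, Retn, Rbp4, Nampt, Rarres2, Nrg4 and Agt. On rAAV-YFP 2 these exceeded the mean of the rest of the group by 0.10 (Rarres2) to 1.17 (Agt) on the log2 scale, and on rAAV-Lmo3 1 by 0.42 (Rarres2) to 1.5 (Agt). Lep was lowest of its group on both arrays, as 26.3% of all genes tested were, though by only 0.04 on the first and by 0.32 on the second. Apln and Fgf21 did neither.

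Some marker lists of cell types moved over the same arrays. The adipocyte list (11 genes measured of 12, all above the dim limit, with Plin1, Fabp4 and Cidec between 4047 and 12146) summed to 65705 to 73554 in rAAV-YFP and 64829 to 72479 in rAAV-Lmo3. Its sum was highest of each group on rAAV-YFP 2 and rAAV-Lmo3 1, and 7 of its 11 genes were highest of their group on both. The macrophage list (11 of 12 measured, all above the limit, with Cd68 between 2654 and 6403) summed to 14316 to 31844 and to 16648 to 29592, and was lowest of each group on those arrays, as were 10 of its 11 genes. The skeletal muscle list (7 measured, 4 above the limit) summed to 1071 to 1856 and to 1012 to 1616, highest of each group on the same arrays. The endothelial list (8 of 8 measured) summed to 9964 to 12663 and to 9007 to 11025, and it was highest of its group on rAAV-YFP 2 but lowest on rAAV-Lmo3 1. The progenitor and fibroblast list (7 of 8 measured, all above the limit) summed to 14390 to 16703 and to 14877 to 16467. It was lowest of each group on rAAV-YFP 2 and rAAV-Lmo3 1, as were 4 of its 7 genes. The mesothelial list (8 measured, 7 above the limit) did not follow these arrays and had its highest sum on rAAV-YFP 3, at 2564. The lymphocyte list (7 measured, 3 above the limit) was also highest on rAAV-YFP 3, at 1091. It was lowest of each group on rAAV-YFP 2 and rAAV-Lmo3 1, at 702 and 677. Epididymal epithelium markers, 6 measured of 8, read 119 or less on every array. The part of these cell types in the member values was not tested. With each array centred on its adipocyte markers, differences were 0.00 ± 0.13 for Adipoq, 0.01 ± 0.19 for Retn, 0.47 ± 0.28 for Nrg4 and -0.40 ± 0.38 for Agt (SE), and 0 members had an unadjusted p under 0.05 by limma.

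**Figure D3:**
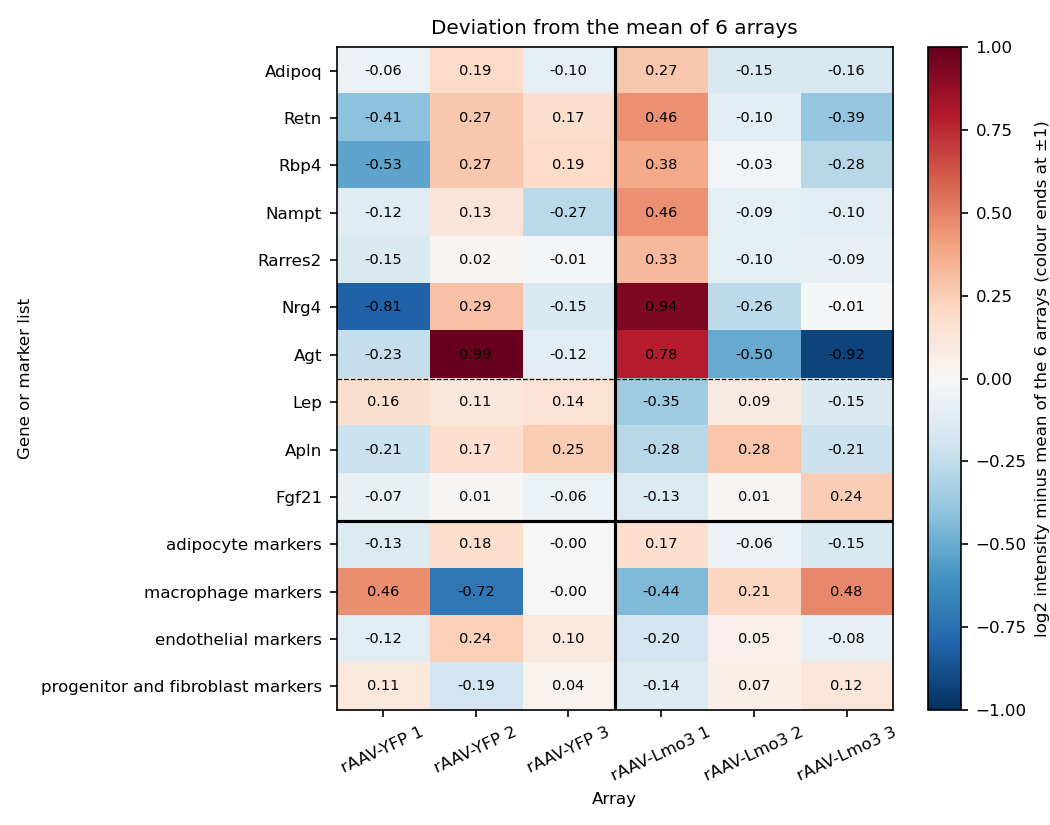
Deviation of each adipokine gene, and below the solid line of the mean over 4 marker lists, from its own mean over the 6 arrays (colour and number, log2 units; columns, arrays, rAAV-YFP left of the vertical line). The 7 genes above the dashed line are highest of their group on rAAV-YFP 2 and rAAV-Lmo3 1, where the macrophage list is at -0.72 and -0.44 and the adipocyte list at 0.18 and 0.17.

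For Adipoq, Lep and Retn the genes with the most similar profile over the 6 arrays were sought by the root mean square (RMS) log2 difference between profiles centred per gene, among 11962 other genes. Nearest to Retn was Slc2a4, the insulin-responsive glucose transporter GLUT4 and one of the adipocyte markers above, with an RMS difference of 0.05 where the profile of Retn itself had an RMS of 0.33. Slc2a4 read 491, 777 and 721 in rAAV-YFP and 941, 581 and 519 in rAAV-Lmo3, thus with the same high and low arrays as Retn, and Ldhb, a lactate dehydrogenase subunit, and Nol3 followed at 0.06 and 0.07. Nearest to Lep were the cationic amino acid transporter Slc7a1, the palmitoyltransferase gene Zdhhc18 and the zinc transporter Slc39a14, with 0.05, 0.05 and 0.06 against 0.19 for Lep itself. Slc7a1 read 331, 329 and 344 in rAAV-YFP and 253, 340 and 294 in rAAV-Lmo3, so rAAV-Lmo3 1 was its lowest array as it was for Lep. Nearest to Adipoq were Tspyl2, Usp18 and Srpk2, each with an RMS difference of 0.03 against 0.17 for Adipoq. The median over all genes was 0.20 for Adipoq, 0.23 for Lep and 0.34 for Retn. Likeness over 6 arrays describes these arrays and was not tested.

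Receptors and partners of these hormones were read from a list of 66 genes, of which 56 had a probe set of their own and 43 lay above the dim limit. By limma 0 of the 43 passed after adjustment, and 0 higher and 2 lower genes had an unadjusted p under 0.05, beside 2.27% and 2.4% of all genes tested. Of the 43 genes 25 lay above 0, with a median of 0.04. The lower genes were Nmnat2 and Erbb2. Nmnat2, an enzyme that makes NAD from the product of Nampt, read 178, 199 and 164 in rAAV-YFP and 151, 151 and 140 in rAAV-Lmo3, a difference of -0.29 ± 0.10 (SE). Erbb2, the co-receptor through which receptors of Nrg4 can signal, read 207, 238 and 204 in rAAV-YFP and 195, 177 and 164 in rAAV-Lmo3, a difference of -0.28 ± 0.10 (SE). The groups overlapped for neither, and both had an adjusted p of 0.970 by limma. They were the 2 of the 43 genes with lower groups apart, beside 5.95% of all genes tested. Without rAAV-YFP 2 the differences were -0.21 for both, and without rAAV-Lmo3 3 they were -0.25 and -0.22, with unadjusted p over 0.05 by limma in each case.

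In the adiponectin axis the receptor Adipor1 read 1531, 1519 and 1544 in rAAV-YFP and 1550, 1560 and 1581 in rAAV-Lmo3. Its groups did not overlap, but they lay only 0.03 ± 0.07 (SE) apart on the log2 scale. Adipor2, the other receptor and the brightest gene of that axis, differed by 0.17 ± 0.12 (SE), or by 0.07 without rAAV-Lmo3 1. Groups also lay apart for Enpep, the aminopeptidase that trims angiotensin II, which read 973, 977 and 1103 in rAAV-YFP and 1896, 1147 and 1161 in rAAV-Lmo3. The difference of Enpep was 0.42 ± 0.20 (SE, adjusted p = 0.970 by limma), but 0.18 without rAAV-Lmo3 1 and 0.16 without both arrays that stood apart. Adipor1 and Enpep were thus the 2 genes of this list with higher groups apart, beside 4.53% of all genes tested. Adipor1 and Enpep were singled out with their values known, as were Klb, Lepr, Erbb3, Erbb4 and Agtr1a below.

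None of the brightest receptors or partners of the remaining axes had an unadjusted p under 0.05 by limma with all 6 arrays. Stat3, which carries the leptin signal, differed by -0.09 ± 0.13, Cap1, a proposed resistin receptor, by 0.01 ± 0.27, and Rbp7, a retinol-binding relative of Rbp4, by 0.22 ± 0.16. Nnmt, which methylates the nicotinamide that Nampt recycles, differed by 0.21 ± 0.11, the chemerin receptor Cmklr1 by -0.24 ± 0.24 and the apelin receptor Aplnr by 0.14 ± 0.17. Egfr, a partner of ERBB receptors, differed by -0.07 ± 0.09, the FGF receptor Fgfr1 by -0.19 ± 0.11, and Ctsd, a lysosomal aspartic protease set beside renin in the angiotensin list, by 0.07 ± 0.17 (all SE). Without both arrays that stood apart Aplnr was at 0.41 and Fgfr1 at -0.22, with unadjusted p of 0.00287 and 0.0449 by limma. Cmklr1 lay at -0.43 without rAAV-Lmo3 1 and at -0.04 without rAAV-YFP 2.

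Some receptors were dim in this tissue. The leptin receptor Lepr read 33 to 39 over the 6 arrays, Erbb4, a receptor of Nrg4, read 53 to 64, and its relative Erbb3 read 89 to 100, all under the dim limit. Klb, the co-receptor that FGF21 needs, read 264, 440 and 466 in rAAV-YFP and 675, 434 and 467 in rAAV-Lmo3. The difference of Klb was 0.45 ± 0.26 (SE), with overlapping groups and rAAV-Lmo3 1 the highest array, and it was 0.25 without that array and 0.19 without rAAV-YFP 1. Agtr1a, the main angiotensin II receptor of rodents, differed by 0.13 ± 0.13 (SE).

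**Figure D4:**
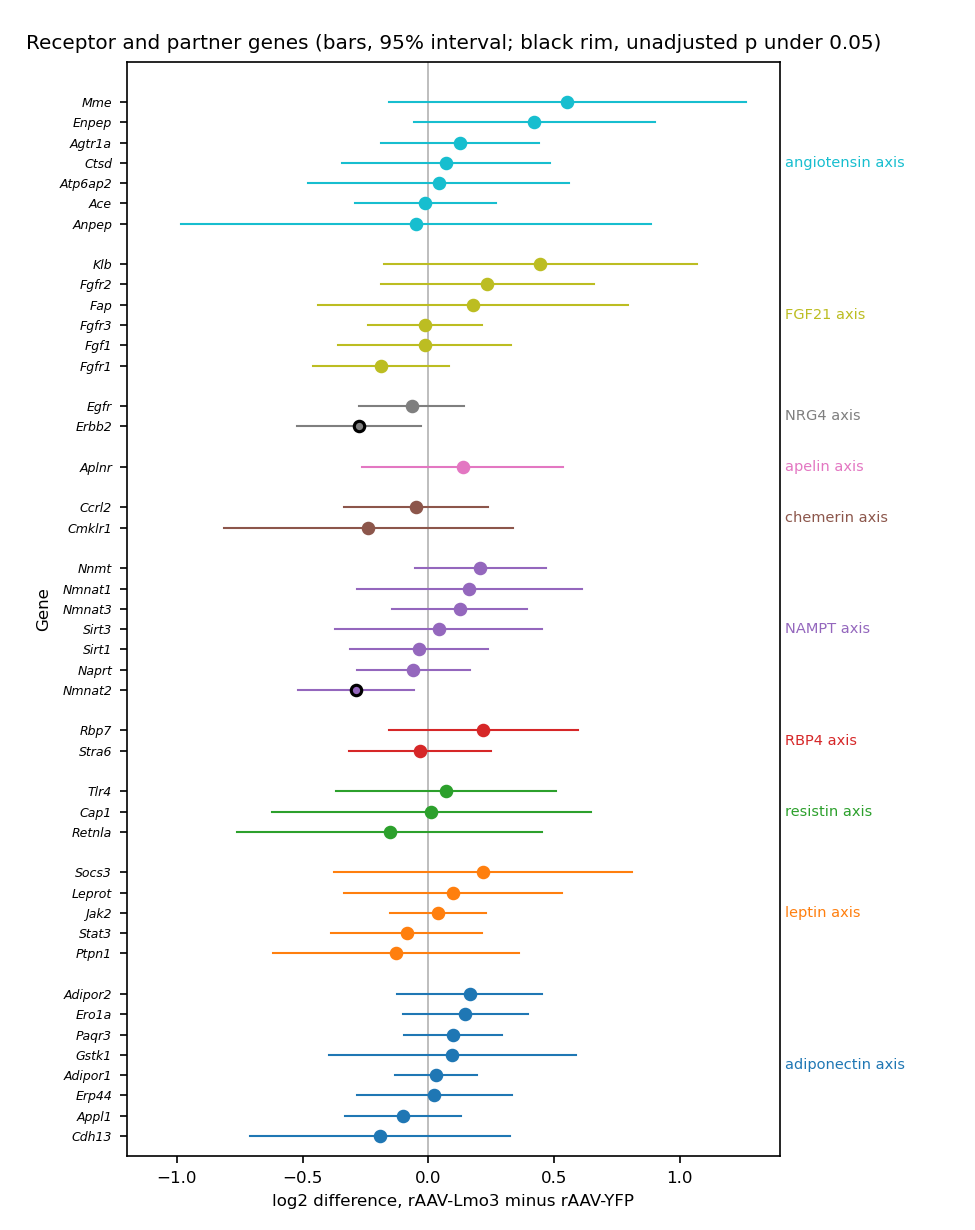
Log2 difference (horizontal axis, rAAV-Lmo3 minus rAAV-YFP) of the 43 tested receptor and partner genes, 1 gene per line and coloured by axis, with 95% intervals (n = 3 pools per group). Nmnat2 and Erbb2, with a black rim, are the 2 genes with an unadjusted p under 0.05, and every other interval includes 0.

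Beside these, 45 further secreted factors, the C1q/TNF relatives of adiponectin and other factors that fat releases, were examined, of which 38 had a probe set of their own and 32 were tested. By limma 0 of them passed after adjustment, and 0 higher and 3 lower genes had an unadjusted p under 0.05, beside 2.27% and 2.4% of all genes tested. The groups lay apart for 1 higher and 4 lower genes, beside 4.53% and 5.95%. Of the 32 genes 15 lay above 0, and the median was -0.06. C1qtnf1, a paralog of Adipoq, read 475, 410 and 377 in rAAV-YFP and 258, 329 and 355 in rAAV-Lmo3, with groups apart and a difference of -0.43 ± 0.15 (SE). Fstl3, a binding protein of activins, differed by -0.39 ± 0.13, and Thbs1, the matrix glycoprotein thrombospondin 1, by -0.73 ± 0.25 (SE), with groups apart for both and an adjusted p of 0.970 by limma for all 3 genes. Without both arrays that stood apart the differences of C1qtnf1, Fstl3 and Thbs1 were -0.31, -0.31 and -0.56, with unadjusted p of 0.0587, 0.0823 and 0.0714 by limma. Sfrp5, a secreted Wnt inhibitor, also lay lower with groups apart (-0.85 ± 0.39), and Igf1, the growth factor, lay higher with groups apart (0.16 ± 0.08, SE). These 2 and Lcn2, at 1.27 ± 0.61 (SE) the highest difference of the 32, were named after their values were seen. Without single arrays Sfrp5 ran from -1.13 (without rAAV-Lmo3 3) to -0.38 (without rAAV-Lmo3 1). Lcn2 ran from 0.70 (without rAAV-YFP 2) to 1.81 (without rAAV-Lmo3 1). Without both arrays that stood apart Sfrp5 lay at -0.41 and Lcn2 at 1.24.

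The plot of left-out arrays shows the direction of Lep, Nrg4 and Agt kept in every case, while Adipoq, Retn, Rbp4, Nampt, Rarres2 and Fgf21 crossed 0 when some single array was left out. Apln crossed 0 when both arrays that stood apart were left out, at 0.01.

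**Figure D5:**
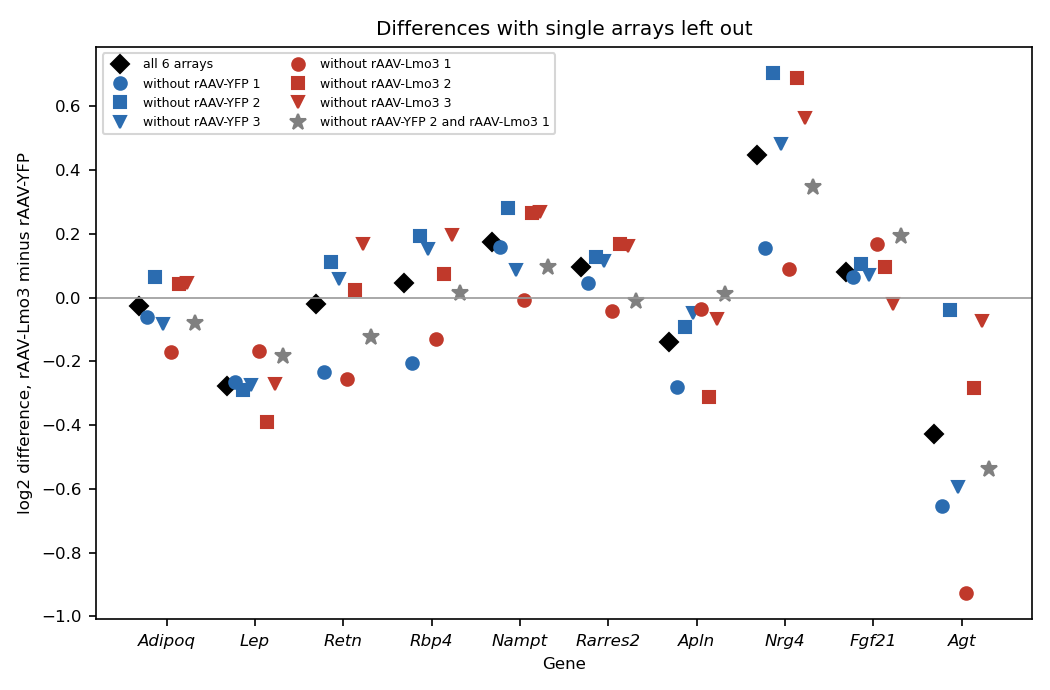
Log2 difference of each adipokine gene (vertical axis, rAAV-Lmo3 minus rAAV-YFP) with all 6 arrays (black), without each rAAV-YFP array (blue), without each rAAV-Lmo3 array (red) and without both arrays that stood apart (grey star). Agt runs from -0.93 to -0.04 and Nrg4 from 0.09 to 0.70, while Lep stays between -0.39 and -0.17.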

How the data were processed

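Total RNA of eWAT was measured on murine Gene Level 1.0 ST GeneChips of Affymetrix, 3 per group. The deposited intensity values were made by the authors with RMA in Affymetrix Expression Console 1.1 and were given per probe set on a linear scale, rounded to whole numbers, of which log2 was taken. Arrays give no counts, so precision rests on their number. The labels name no batch and no genome build. Of 35556 probe sets, 21789 had 1 symbol, 1621 several and 12146 none. For 21698 of the probe sets with 1 symbol the gene ID was found in the RefSeq gene table.

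Genes were compared in R 4.3.3 by two-sided tests of limma 3.58.1 (lmFit, eBayes), with Benjamini-Hochberg adjustment over 11963 genes and a threshold of 0.05. The code was tested on simulated data. Because each replicate is a pool of 2 mice, p-values set the difference between groups against the spread between pools, not between animals. Named were all members, receptor, partner and other secreted genes at an unadjusted p under 0.05, the brightest gene of each of 10 axes, and the 3 genes nearest to Adipoq, Lep and Retn. Members and lists were chosen with earlier results of these data known. Genes of the lists without a probe set of their own were not analysed here. Alternatives were other centring, a second quantile normalization, array weights, another prior, a replicate block, other limits for dim genes, the mean over probe sets, the methods' t-test (equal variances) and left-out arrays. Centring on adipocyte markers or on the median over all probe sets was chosen after seeing the data.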

Additional observations from a re-analysis of the deposited data

How the results depend on the processing

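Under each of 18 alternatives limma or the methods' t-test called 0 members and 0 genes after adjustment, and the lowest adjusted p of a member was 0.831. Lep, Nrg4 and Agt kept their direction under all 18. Of 176 member values 19 reversed. With other limits for dim genes, another prior, the mean over probe sets, a replicate block or the methods' t-test, member differences stayed at their main values. Those alternatives could therefore show no reversal, and the direction was examined only by the others. Without single arrays Adipoq reached 0.04 (without rAAV-Lmo3 2), 0.05 (without rAAV-Lmo3 3) and 0.063 (without rAAV-YFP 2) in a range from -0.17 to 0.063, Retn 0.02, 0.06, 0.11 and 0.17 in a range from -0.26 to 0.17, Rbp4 -0.13 and -0.20 in a range from -0.20 to 0.20, Nampt -0.0090 in a range from -0.0090 to 0.28, Rarres2 -0.043 in a range from -0.043 to 0.17, and Fgf21 -0.021 (without rAAV-Lmo3 3) in a range from -0.021 to 0.17. With array weights Rbp4 was -0.031 and Rarres2 -0.00, without both arrays that stood apart Rarres2 was -0.010 and Apln 0.012, with adipocyte centring Adipoq was 0.00030 and Retn 0.0056, and with the median over all probe sets Retn was 0.0019.

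At an unadjusted p under 0.05, 0 members became 1 (Lep) with each array centred on its median over the tested genes, 1 (Agt) without both arrays, and 0 to 1 without single arrays (Agt without rAAV-Lmo3 1, Lep without rAAV-Lmo3 2). The count of all genes, 558, became 840 with no limit for dim genes, 244 with adipocyte centring and 263 to 684 without single arrays, the lowest without rAAV-YFP 2 and 283 without rAAV-Lmo3 3. The 2 receptor and partner genes became 5 with array weights, 5 without both arrays, 0 with the dimmest 60% left out, 1 with a second quantile normalization and 0 to 5 without single arrays (0 without rAAV-YFP 2 or rAAV-Lmo3 3, 1 without rAAV-YFP 1, 5 without rAAV-Lmo3 1). With adipocyte centring they were 2 others, Klb and Enpep, and by the methods' t-test Nmnat2 and Adipor1. The 3 further secreted factors became 5 with array weights, 5 with no limit for dim genes, 1 by the methods' t-test (Igf1, none of the 3), 1 with adipocyte centring (Thbs1) and 2 to 5 without single arrays. Without both arrays they were 3 others, Lcn2, Sfrp5 and Ccn5. The causes were not tested.

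With the replicate number as a block, 0 members and 0 genes were called, 453 genes had an unadjusted p under 0.05, and receptor and partner genes fell from 2 to 1 (Nmnat2), while further secreted factors were 4 (Fstl3, Thbs1 and Npr3 lower, Angptl8 higher) and C1qtnf1 had an unadjusted p of 0.0704 by limma. The deviations of same-numbered arrays from their group means correlated with r of -0.55, -0.40 and 0.26, and no array correlated best with its own number. The numbers were therefore not taken to pair the arrays. With 3 pools per group, the 95% intervals of members spanned from 0.50 (Fgf21) to 2.40 (Agt) log2 units, and differences inside them were not resolved.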
